A study of Mus musculus with 12 samples.

Results

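The interleukin-1 (IL-1) family, TNF and the cytokines IL-6 and IL-10 were followed through 10 genes, matched by symbol among the 32285 genes of the count tables. The ligands were Il1a, Il1b, Il1f9 (IL-36 gamma), Il18, Tnf, Il6 and Il10, the antagonist was Il1rn, and the receptors were Il1r1, which signals, and Il1r2, a decoy. All 10 had UMIs. They were measured by droplet-based single-cell RNA sequencing of enzymatically dissociated livers of 12 C57BL6/J mouse pups on postnatal day 11, 1 library per mouse. Pups of each litter had been assigned at random to naive control (n = 6) or phlebotomy-induced anemia (n = 6). Anemia pups lost 20 µL of blood per gram of body weight through the facial vein on every other day from day 2 to day 10. Control pups were pricked with a needle but not bled. The labels do not say which pups were littermates. Both groups share strain, age and tissue processing, and the labels give 1 batch date for all libraries.

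IL-1 alpha and IL-1 beta are the founding members of the family. IL-1 beta and IL-18 are made as inactive precursors that an inflammasome caspase cleaves, whereas the precursor of IL-1 alpha is already active and is released from damaged cells. Both forms of IL-1 bind the receptor encoded by Il1r1, which pairs with an accessory chain and signals through MyD88 and NF-kappaB. The product of Il1rn occupies the same receptor without signaling, and that of Il1r2 captures IL-1 as a decoy. In the liver, Kupffer cells, the resident macrophages, are known sources of IL-1, TNF, IL-6 and IL-18, to which endothelial, stellate and parenchymal cells respond. IL-10 restrains the production of the others. UMI counts measure mRNA and say nothing of the cleavage or release of the proteins.

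In GENCODE M21 on GRCm38, 4 of the genes lie on chromosome 2: Il1a at chr2:129299610-129309972, Il1b at chr2:129364570-129371139, Il1f9 at chr2:24186476-24193568 and Il1rn at chr2:24336853-24351494. The receptor genes Il1r2 at chr1:40074079-40125231 and Il1r1 at chr1:40225080-40317257 are close together on chromosome 1, which also holds Il10 at chr1:131019845-131024974. Il18 lies at chr9:50554827-50581840, Tnf at chr17:35199381-35202007 and Il6 at chr5:30013114-30019981.

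The 250 bases before the annotated start (RefSeq, GRCm38.p6) are shown for 3 members on which the results turn: Il1b, with no overlap between the groups in neutrophil-like cells, Il1r1, higher in endothelial-like and stellate-like cells, and Il6, higher in the stellate-like class as a whole. Within the cluster that held most Il6 of that class, the anemia values lay inside the control range. Capitals mark a match to a TATA box (TATAAA) or to a kappaB motif (GGGNN followed directly by TTTCC), both searched on both strands.
Il1b, chr2:129371140-129371389, minus strand: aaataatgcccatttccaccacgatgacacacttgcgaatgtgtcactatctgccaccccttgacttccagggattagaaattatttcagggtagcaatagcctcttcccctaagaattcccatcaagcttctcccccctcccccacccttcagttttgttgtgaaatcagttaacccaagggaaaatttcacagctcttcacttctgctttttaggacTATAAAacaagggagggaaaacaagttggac
Il1r1, chr1:40224830-40225079, plus strand: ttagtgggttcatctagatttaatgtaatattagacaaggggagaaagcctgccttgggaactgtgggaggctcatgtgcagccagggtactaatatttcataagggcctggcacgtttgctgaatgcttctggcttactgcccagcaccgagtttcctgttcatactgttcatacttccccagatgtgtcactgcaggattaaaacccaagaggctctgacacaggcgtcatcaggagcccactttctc
Il6, chr5:30012864-30013113, plus strand: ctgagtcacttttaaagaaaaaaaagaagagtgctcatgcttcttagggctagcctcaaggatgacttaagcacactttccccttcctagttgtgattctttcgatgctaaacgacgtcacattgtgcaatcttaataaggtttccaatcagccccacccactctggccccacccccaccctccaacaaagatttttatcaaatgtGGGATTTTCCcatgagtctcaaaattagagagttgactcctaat
The first base of the TATA match lay 31 bases before the start of Il1b, and that of the kappaB match 44 bases before the start of Il6. The window of Il1r1 shown held neither set of letters, nor did that of its other annotated start (chr1:40266336-40266585). Which start the cells used was not tested. Of 12 windows of 9 members, 4 held TATAAA (Il18, Il1a, Il1b and Tnf) and 2 held the kappaB letters (Il6 and 1 of the starts of Il1rn). The TATAAA match of Il18 was on the strand opposite to the gene, 175 bases before the start. Those of Il1a and Tnf lay 32 and 29 bases before their starts, on the strand of the gene. Of all 32851 windows of this length in the table, 12.4% held TATAAA and 1.41% the kappaB letters. These matches describe letters and are not measured binding.

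A total of 206146 of 207537 barcodes were kept, with 14184 to 21186 cells and 45751640 to 74344118 UMIs per mouse. Cells were clustered with 57 genes, the 10 members and related genes, kept out, and clusters were named from marker genes with the ending -like. This gave 15 classes for testing and 12322 unnamed cells (5.98%). Of 202419 distinct barcode sequences, 4951 were kept in more than 1 library. Called doublets, 11.5% to 17.0% of the cells of a library, were kept. Every mouse had at least 71 stellate-like cells, but without doublets a mouse had under 10, so most of its stellate-like cells were called doublets. The library of anemia 2 stood apart: 28.7% of its cells were monocyte-like, against 1.81% to 11.4% in the other 11 mice, and it held 45.0% of all monocyte-like cells. The 11.4% was that of anemia 3, and the next highest share was 3.05%. Most test results that rest on anemia 2 are given with and without it, and the values without it still hold anemia 3.

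Levels are UMIs of a gene per 1000000 UMIs of a class in 1 mouse (CPM), given as the lowest, the median and the highest of 6 mice. Log2 fold changes compare anemia with control and come from edgeR's quasi-likelihood test with TMM scaling on UMIs summed per mouse and class. The value after ± is an approximate standard error. It was back-calculated as the absolute log2 fold change divided by the square root of the F statistic of that test. P-values were adjusted by Benjamini-Hochberg over all genes tested in the class, and a member was called changed at an adjusted p under 0.05. Library sizes without TMM factors moved the median log2 fold change of all genes by -0.39 in hepatocyte-like cells, -0.34 in erythroid-like cells and -0.24 in the sum of all kept cells, and by less than 0.1 in the other classes. All classes share the same 12 livers, and tests in different classes therefore depend on each other.

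**Figure D1:**
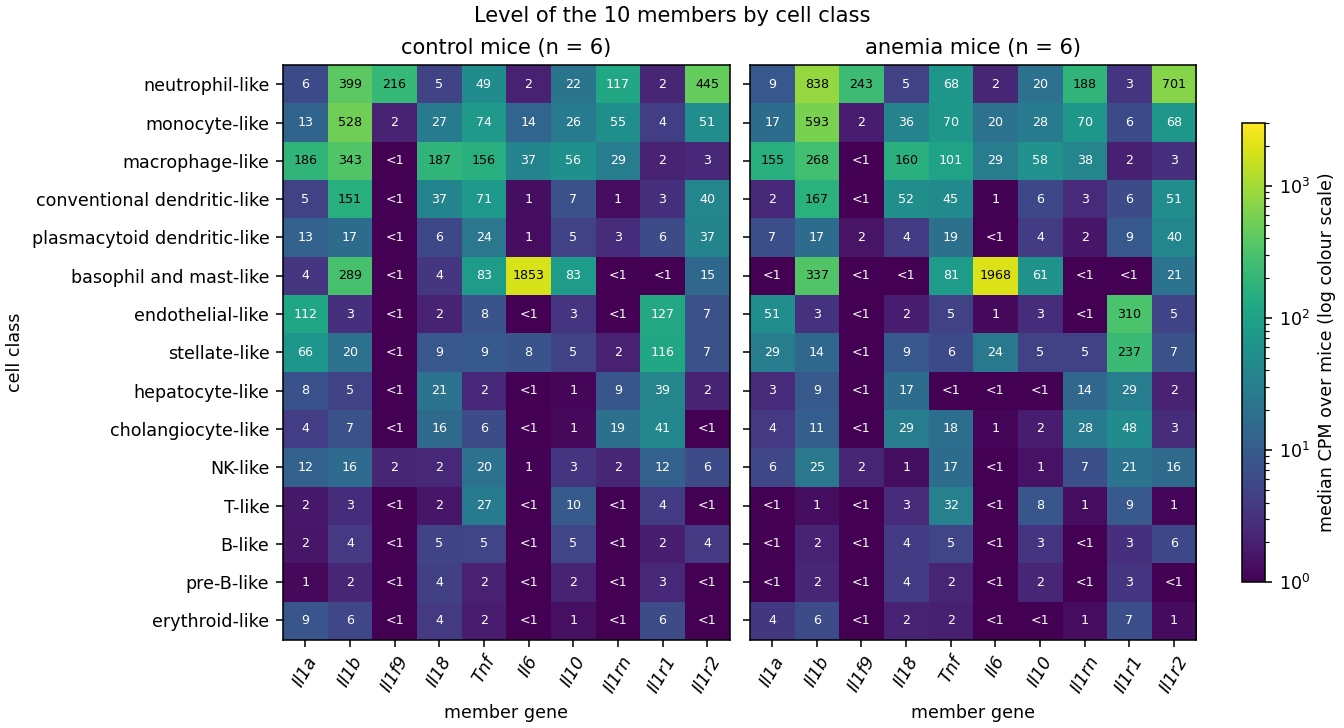
Median CPM of the 10 members by cell class in control and anemia mice (n = 6 each), on a log color scale. Il1b is high in neutrophil-like, monocyte-like, macrophage-like and basophil and mast-like cells, and Il6 in basophil and mast-like cells. Il1r1 is high in endothelial-like and stellate-like cells and Il1r2 in neutrophil-like cells.

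The members differed in their source cells. Of the Il1f9 UMIs of all mice, 91.5% lay in neutrophil-like cells, as did 66.8% of those of the decoy receptor Il1r2. Il18 lay mostly in macrophage-like cells (68.1%), which also held 57.5% of Il10, 46.1% of Il1a, 45.4% of Tnf and 41.5% of Il6. Endothelial-like cells held a further 30.8% of Il1a. Il1b was divided among monocyte-like (33.8%), macrophage-like (29.0%) and neutrophil-like cells (23.5%), and Il1rn among neutrophil-like (38.2%), monocyte-like (35.8%) and macrophage-like cells (15.3%). These orders rest on pooling. As the median of 12 mice, macrophage-like cells held the most of both genes, with 46.5% of Il1b, followed by 19.6% in neutrophil-like and 12.1% in monocyte-like cells. The medians for Il1rn were 41.2%, 32.6% and 7.73% in that order. Il1r1 was mainly stromal, with 65.1% in endothelial-like and 14.1% in stellate-like cells. The unnamed cells, 5.98% of all kept cells, held 19.6% of Il6, 12.7% of Il10 and 12.4% of Il1r1. Of each other member they held 3.07% to 9.91%. Apart from those medians, the shares pool the mice, and anemia 2 held the most monocyte-like cells.

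At least 1 UMI of Il1b was found in 63.3% of monocyte-like, 51.0% of neutrophil-like and 42.3% of macrophage-like cells, whose median depths were 3274, 1477 and 4918 UMIs. The share was 31.0% in conventional dendritic-like (5688.5 UMIs) and 19.2% in basophil and mast-like cells (1472 UMIs). The Il1b level in the former was 131 to 193 CPM in control and 130 to 266 CPM in anemia mice. In the latter it was 146 to 749 CPM and then 140 to 966 CPM. Neither change was called (edgeR adjusted p = 0.727 and 0.854). In B-like cells (1387 UMIs), which are not known for Il1b, the share was 0.624%. Il1r2 was found in 55.9% of neutrophil-like and 0.662% of B-like cells. Il1r1 was found in 40.8% of endothelial-like (3914 UMIs) and 46.7% of stellate-like cells (6054 UMIs), against 1.08% of macrophage-like cells. It was not detected in basophil and mast-like cells, 0 of 583 cells, which allows a share of up to 0.515% of cells with a UMI, for counting error only.

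In all, 110 pairs of class and member were tested and 9 were called, 5 of them higher in anemia. Without anemia 2, 10 pairs were called, 8 of which were also called with it. No share of all genes is given for the fits without anemia 2. In endothelial-like cells 2 of 9 tested members were called, beside 17.8% of all genes tested in that class. In stellate-like cells it was 3 of 9, beside 14.3% of all genes, and in hepatocyte-like cells 3 of 7, beside 55.2%. The 3 calls in stellate-like cells (Il1a, Il1r1 and Il6) have no fit without doublets. In conventional dendritic-like cells 1 of 8 was called, beside 0.326%. In the sum of all kept cells 2 of 10 were called, beside 6.92%.

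The other 11 classes had 0 members called by edgeR. Their counts at an unadjusted p under 0.05 are set beside the percent of all genes tested in the class that were called (adjusted p) and that had such an unadjusted p, in that order. These percents are those of edgeR. The counts by DESeq2 and voom, here and below, have no share of all genes beside them and are descriptions. In neutrophil-like cells it was 5 of 10 members, beside 0.328% and 15.7% of all genes, and DESeq2 and a joint limma-voom model of all classes each called 2. In monocyte-like cells it was 5 of 10 (0.581% and 14.0%), with 0 calls by either tool, and in macrophage-like cells 4 of 9 (2.48% and 20.9%), with 0 calls by DESeq2 and 1 by voom. The count was 3 of 7 in B-like (2.15% and 19.0%), 3 of 9 in NK-like (0.217% and 13.5%), 1 of 4 in T-like (1.33% and 11.8%) and 0 of 5 in pre-B-like cells (1.44% and 14.1%). It was 1 of 6 in plasmacytoid dendritic-like (1.24% and 13.3%), 2 of 8 in erythroid-like (0.637% and 11.5%), 2 of 5 in cholangiocyte-like (0.0104% and 8.85%) and 0 of 4 in basophil and mast-like cells (0.649% and 8.72%). DESeq2 and voom called 0 members in these 8 classes. Log2 fold changes were positive for 10 of 10 members in neutrophil-like cells (median 0.67, beside 0.01 for all genes) and 10 of 10 in monocyte-like cells (0.84, beside 0.02). It was positive for 3 of 9 in macrophage-like cells (-0.11, beside 0.03). Without anemia 2 the counts were 8 of 9 in neutrophil-like, 9 of 10 in monocyte-like and 4 of 9 in macrophage-like cells, with medians of 0.49, 0.39 and -0.06, beside 0.01, 0.00 and 0.01 for all genes. Control mice held 1 to 8 UMIs of Il6 and 0 to 6 of Il1r1 in neutrophil-like cells. In monocyte-like cells they held 1 to 3 of Il1f9 and 3 to 9 of Il1r1. In cholangiocyte-like cells they held 0 to 8 of Il1b and 0 to 6 of Tnf, the 2 members counted there at an unadjusted p under 0.05. These averaged under 5 in control and passed the filter, a mean of 5 UMIs over all mice, through the anemia mice. Such a filter favors a positive sign, and the counts of positive signs are therefore descriptions. The count in cholangiocyte-like cells is likewise a description.

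Il1b was higher in the neutrophil-like cells of every anemia mouse than in any control. The level was 327, 399 and 455 CPM in control and 507, 838 and 3061 CPM in anemia mice. Anemia 2 was far above the others, the next being 1125 CPM, and the groups did not overlap with or without it. The log2 fold change was 1.51 ± 0.36, with an edgeR adjusted p of 0.0823 that missed the threshold. Without anemia 2 it was 0.94 and passed (edgeR adjusted p = 0.0221). With all mice DESeq2 and the joint limma-voom model called it (adjusted p = 0.00409 and 0.00115). Markers of other cells were present in this class. All 9 macrophage markers had UMIs, with a sum of 90.8 to 168 CPM in control and 107 to 519 CPM in anemia mice, and all 6 monocyte markers summed to 392 to 594 CPM in control and 399 to 621 CPM in anemia mice. Both sums were highest in anemia 2, and their part in the result was not tested.

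In monocyte-like cells Il1b stood at 459, 528 and 563 CPM in control and 432, 593 and 1311 CPM in anemia mice. The groups overlapped, anemia 2 again being the highest, and the log2 fold change of 0.49 ± 0.23 was not called (edgeR adjusted p = 0.351; without anemia 2, 0.17 and 0.709). In these cells all 11 neutrophil markers had UMIs and summed to 844 to 1389 CPM in control and 667 to 3661 CPM in anemia mice, and all 9 macrophage markers summed to 473 to 916 CPM in control and 465 to 1922 CPM in anemia mice. Their part in the monocyte-like values was not tested. In macrophage-like cells it was 308, 343 and 432 CPM in control and 180.2, 268 and 364 CPM in anemia mice. These groups overlapped as well, and the change of -0.31 ± 0.15 was not called (edgeR adjusted p = 0.237; without anemia 2, -0.29 and 0.310). The clusters behind both classes differed between mice. Cluster 4 (Clec4f, Vsig4) was 54.6, 59.6 and 65.3% in control and 0.818, 51.8 and 58.7% in anemia mice of the macrophage-like cells, lowest in anemia 2, and cluster 26 (Marco, Gbp2b) was 1.38, 2.13 and 4.65% and then 3.32, 4.79 and 53.5%, where anemia 2 was the highest and the next was 44.6%. Il1b was 346, 379 and 452 CPM in control and 118, 232 and 397 CPM in anemia mice in cluster 4 and 313, 491 and 813 CPM and then 235, 412 and 494 CPM in cluster 26, with overlap in both. Among monocyte-like cells cluster 19 (Ly6i, Clec4e) was 0.619, 0.769 and 2.89% and then 1.52, 4.21 and 53.3%, highest in anemia 2.

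Whether the effect on Il1b differed among these 3 classes was tested within mice, on log2(CPM + 1). The level in macrophage-like relative to neutrophil-like cells was -0.17 ± 0.23 in control and -1.82 ± 1.18 in anemia mice (mean ± SD, n = 6), a difference of -1.65 (exact two-sided permutation test, p = 0.00216, adjusted p = 0.00325 over 3 pairs). That p is the smallest that 924 permutations can give. Monocyte-like relative to neutrophil-like cells differed by -0.92 (exact permutation adjusted p = 0.00325) and macrophage-like relative to monocyte-like cells by -0.73 (exact permutation adjusted p = 0.0108). Without anemia 2 the differences were -1.27, -0.78 and -0.49 in that order, with exact permutation adjusted p of 0.00325, 0.00325 and 0.0152. The effect was thus most positive in neutrophil-like and least in macrophage-like cells. The different clusters named above stand behind these class levels, and their part in the result was not tested.

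**Figure D2:**
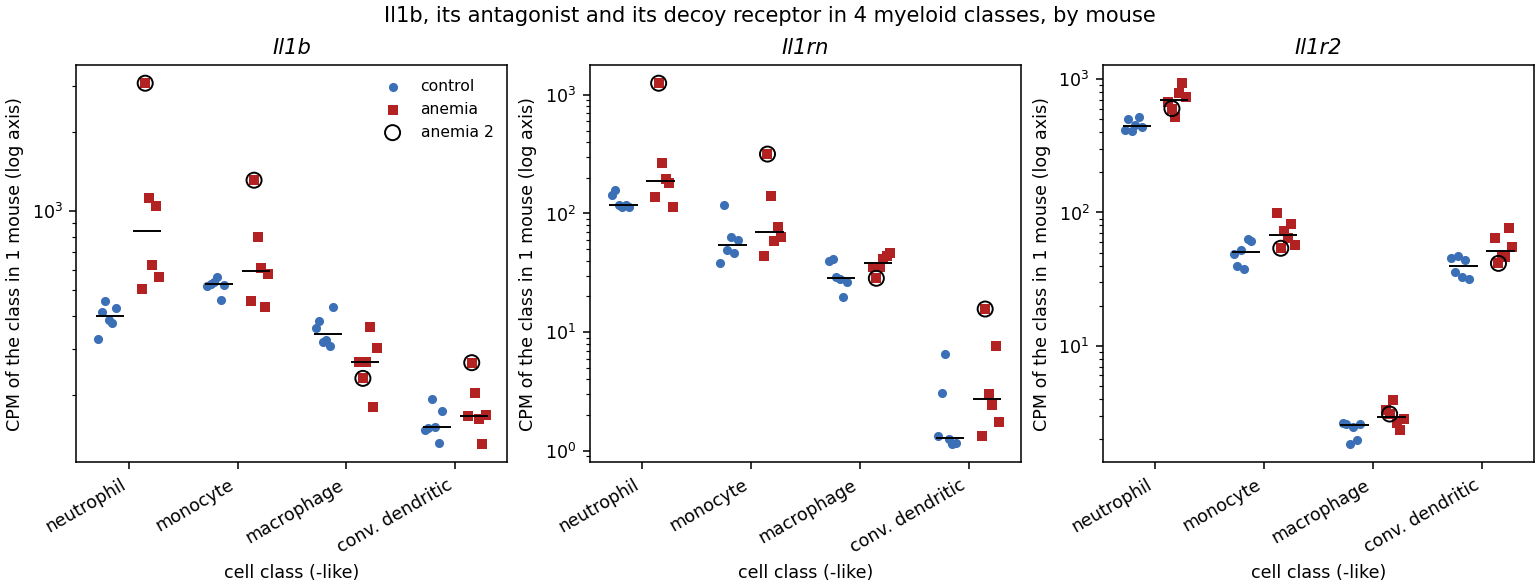
CPM of Il1b, Il1rn and Il1r2 in 4 myeloid classes on log axes, with 1 point per mouse (6 control, 6 anemia), a bar at the median and a ring around anemia 2. In neutrophil-like cells the Il1b points run from 327 to 455 CPM in control and from 507 to 3061 CPM in anemia mice, while in macrophage-like cells the groups overlap.

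Where the Il1b transcripts lay differed too. Macrophage-like cells held 44.9, 63.4 and 68.9% in control and 6.18, 35.6 and 47.7% in anemia mice, as percent of the Il1b UMIs of a library. The difference in means was -30.2 percentage points (exact two-sided permutation test, adjusted p = 0.0146 over 9 shares). Neutrophil-like cells held 6.27, 10.9 and 19.9% and then 19.4, 25.2 and 40.4% (16.1 points, exact permutation adjusted p = 0.0130). Monocyte-like cells held 5.75, 7.71 and 11.6% and then 12.6, 16.8 and 57.8% (17.5 points, exact permutation adjusted p = 0.0130). The groups overlapped in macrophage-like and neutrophil-like cells and did not in monocyte-like cells. Without anemia 2 the differences were -25.3, 16.1 and 11.1 points in that order, and each passed its test (exact permutation adjusted p = 0.0195, 0.0195 and 0.0195). Without control 5 the 3 differences missed the threshold (exact permutation adjusted p = 0.0519 for each). A share combines the number of cells of a class with the level in them, and fewer cells of a type and less RNA per cell cannot be told apart in it. It also falls when other classes hold more: in anemia 2 the macrophage-like cells held 3004 Il1b UMIs, inside the control range of 1743 to 4947, while its monocyte-like cells held 28086. The 3 shares of a gene are therefore not independent of each other.

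For the antagonist Il1rn the share in macrophage-like cells was 32.9, 43.8 and 61.1% in control and 2.72, 31.4 and 42.4% in anemia mice. The groups overlapped, and the difference of -18.4 points passed its test (exact permutation adjusted p = 0.0227). It missed the threshold without control 1, control 2, control 4, control 5, control 6, anemia 2 or anemia 3 (exact permutation adjusted p = 0.0552 to 0.101). Its shares in monocyte-like and neutrophil-like cells differed by 12.7 and 6.61 points (exact permutation adjusted p = 0.122 and 0.143).

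Of the Il18 UMIs, macrophage-like cells held 67.9, 77.2 and 81.5% in control and 40.2, 67.9 and 71.5% in anemia mice (-13.6 points, exact permutation adjusted p = 0.0156). Without anemia 2 the difference was -9.05 points (exact permutation adjusted p = 0.0234), and without control 5 it missed the threshold (exact permutation adjusted p = 0.0536). The share in monocyte-like cells was 0.722, 0.957 and 2.05% in control and 1.99, 3.41 and 45.2% in anemia mice, the highest being anemia 2 (11.3 points, exact permutation adjusted p = 0.0130; without anemia 2, 4.70 points and 0.0195). That difference missed the threshold when any 1 of the 6 controls was left out (exact permutation adjusted p = 0.177 to 0.232). In neutrophil-like cells the share of Il18 differed by 0.748 points (exact permutation adjusted p = 0.143).

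**Figure D3:**
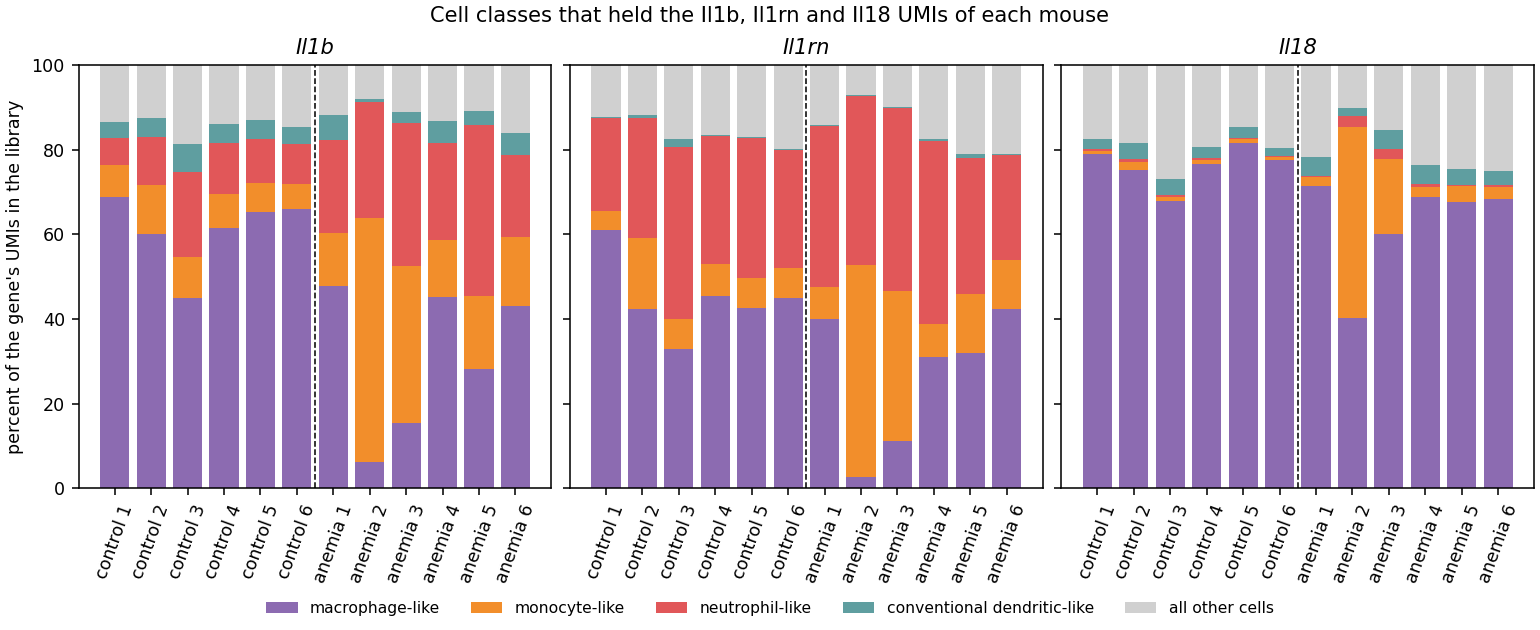
Percent of the Il1b, Il1rn and Il18 UMIs of each library by cell class, 1 bar per mouse, control and anemia mice side by side. The macrophage-like part of Il1b has a median of 63.4% in control and 35.6% in anemia mice and is smallest, 6.18%, in anemia 2.

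Within the neutrophil-like class the level of Il1b differed among 4 large clusters, from cluster 43 (Camp, Chil3) and 17 (Ltf, Ngp), led by granule genes of immature granulocytes, to 28 (Retnlg) and 12 (Csta3, Hcar2). Over all cells it was 15.3, 157, 1112 and 2971 CPM in that order. Il1rn followed the same order with 5.96, 63.8, 197 and 1036 CPM, whereas Il1f9 was highest in cluster 28 (499 CPM). In cluster 12 the Il1b level was 1509, 1613 and 2096 CPM in control and 1808, 2282 and 4155 CPM in anemia mice, and in cluster 28 it was 699.7, 736 and 895 CPM and then 821, 1212 and 1526 CPM. The groups overlapped in both clusters. Cluster 12 made up 27.0, 33.2 and 35.5% in control and 34.7, 40.3 and 83.3% in anemia mice of the neutrophil-like cells, the highest being anemia 2 and the next 43.1%. Il1r2 in cluster 17 was 217, 293 and 319 CPM in control and 352, 407 and 449.7 CPM in anemia mice, without overlap, and in cluster 12 1183, 1365 and 1518 CPM and then 724, 1685 and 2515 CPM. These values by cluster are descriptions without a test.

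**Figure D4:**
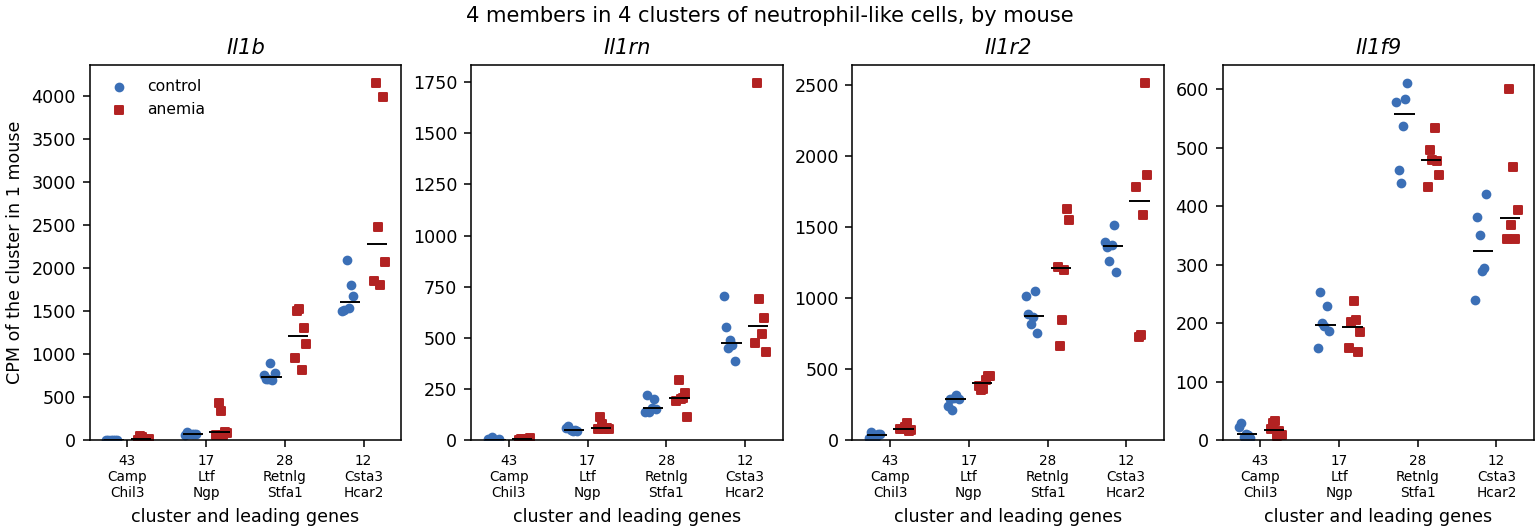
CPM of Il1b, Il1rn, Il1r2 and Il1f9 in 4 clusters of neutrophil-like cells on linear axes, with 1 point per mouse and a bar at the median. Il1b is highest in cluster 12, 1509 to 2096 CPM in control and 1808 to 4155 CPM in anemia mice, and at most 52.5 CPM in cluster 43.

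Il1rn in neutrophil-like cells was 113, 117 and 158 CPM in control and 113, 188 and 1251 CPM in anemia mice. The groups overlapped, and anemia 2 exceeded the next mouse (266 CPM) by far. The log2 fold change of 1.47 ± 0.49 was not called (edgeR adjusted p = 0.173; without anemia 2, 0.49 and 0.229). In monocyte-like cells Il1rn was 38.2, 54.6 and 118 CPM and then 43.4, 70.0 and 316 CPM, highest in anemia 2 (1.00 ± 0.44, edgeR adjusted p = 0.323; without anemia 2, 0.33 and 0.735). In macrophage-like cells it was 19.8, 28.8 and 41.5 CPM and then 28.5, 38.3 and 46.4 CPM (edgeR adjusted p = 0.213). The groups overlapped in both classes. In the sum of all kept cells, the antagonist was more frequent in anemia relative to its ligand. There were 9.02, 12.2 and 15.4 Il1rn UMIs per 100 Il1b UMIs in control and 15.6, 17.4 and 27.9 in anemia mice, without overlap. The log2 ratio was -3.10 ± 0.27 and -2.41 ± 0.33 (SD, n = 6), a difference of 0.69 (exact two-sided permutation test, adjusted p = 0.00433 over 2 ratios). Without anemia 2 the difference was 0.58 (exact permutation adjusted p = 0.00866). Within classes, the Il1rn UMIs per 100 Il1b UMIs were 25.6, 30.3 and 43.9 in control and 17.2, 25.4 and 40.9 in anemia mice in neutrophil-like cells. They were 7.36, 10.7 and 22.2 in control and 9.55, 14.2 and 24.1 in anemia mice in monocyte-like and 6.12, 8.93 and 11.1 in control and 11.3, 13.3 and 24.5 in anemia mice in macrophage-like cells. The groups overlapped in neutrophil-like and monocyte-like cells, the anemia median being the lower one in neutrophil-like cells, and did not overlap in macrophage-like cells. These values within classes have no test. The level of Il1rn itself over all kept cells was 8.40, 10.5 and 17.1 CPM in control and 11.2, 15.7 and 183 CPM in anemia mice, highest in anemia 2 (2.40 ± 0.73, edgeR adjusted p = 0.0681; without anemia 2, 1.09 and 0.136), and DESeq2 called it (adjusted p = 0.0136).

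Hepatocyte-like cells carried low levels of both genes. Il1rn was 4.49, 8.58 and 10.5 CPM in control and 7.13, 14.1 and 41.6 CPM in anemia mice, which overlap, and rose with a log2 fold change of 1.35 ± 0.37 (edgeR adjusted p = 0.00545; without anemia 2, 0.98 and 0.00827). The joint voom model did not call it (adjusted p = 0.0625). Il1b was 2.57, 4.71 and 10.1 CPM in control and 2.38, 9.25 and 57.2 CPM in anemia mice, the highest in anemia 2. Its change of 1.60 ± 0.61 was called with all mice (edgeR adjusted p = 0.0340) and not without anemia 2 (0.75, edgeR adjusted p = 0.129). That call was also lost without control 3, control 4, control 5, control 6 or anemia 5 (1.44 to 1.61, edgeR adjusted p = 0.0511 to 0.0787). It was lost without TMM factors, at 10% mitochondrial UMIs, without doublets and at resolution 1 (1.22, 1.39, 1.28 and 1.30, edgeR adjusted p = 0.0956, 0.0782, 0.0736 and 0.0705), and in the joint voom model (0.56, adjusted p = 0.481). All 6 monocyte markers had UMIs in these cells and summed to 6.59 to 23.8 CPM in control and 5.41 to 97.4 CPM in anemia mice, highest in anemia 2. All 11 neutrophil markers summed to 83.4 to 517 CPM in control and 135 to 541 CPM in anemia mice. Their part in the result was not tested.

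Stromal cells held few Il1rn UMIs, 150 in stellate-like and 106 in endothelial-like cells of all mice. In stellate-like cells it was 1.22, 2.07 and 3.66 CPM in control and 1.08, 4.78 and 42.6 CPM in anemia mice, overlapping and highest in anemia 2. The log2 fold change of 2.16 ± 0.71 was not called by edgeR (adjusted p = 0.0538; without anemia 2, 1.35 and 0.120) or by the joint voom model (adjusted p = 0.170) and was called by DESeq2 (adjusted p = 0.0171). In endothelial-like cells it was 0.278, 0.482 and 0.749 CPM and then 0.0718, 0.838 and 3.88 CPM, also overlapping and highest in anemia 2 (1.44 ± 0.62, edgeR adjusted p = 0.119; without anemia 2, 0.74 and 0.333), and was called by DESeq2 alone (adjusted p = 0.0476).

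Il1a fell in 3 classes, endothelial-like, stellate-like and hepatocyte-like cells. In endothelial-like cells it was 109, 112 and 128 CPM in control and 39.8, 51.4 and 82.0 CPM in anemia mice. All 6 anemia mice were below all controls. The log2 fold change was -0.96 ± 0.14 (edgeR adjusted p = 0.000515; without anemia 2, -0.91 and 0.000899). In stellate-like cells the levels were 53.6, 66.1 and 84.1 CPM and then 23.9, 28.8 and 46.7 CPM, again without overlap (-1.05 ± 0.15, edgeR adjusted p = 0.000417). In hepatocyte-like cells Il1a was 5.78, 7.50 and 11.5 CPM and then 2.04, 2.71 and 4.05 CPM, also without overlap (-1.07 ± 0.23, edgeR adjusted p = 0.000831). That call was lost when doublets were left out (-0.65, edgeR adjusted p = 0.237). In macrophage-like cells it was 168, 186 and 198 CPM in control and 122, 155 and 216 CPM in anemia mice, which overlap (-0.11 ± 0.12, edgeR adjusted p = 0.617). Whether the effect differed between macrophage-like and the other 3 classes was not tested. Over all kept cells Il1a was 54.2, 71.1 and 76.7 CPM in control and 33.9, 41.4 and 57.3 CPM in anemia mice, overlapping and highest among anemia mice in anemia 2. That change of -0.46 ± 0.15 was not called by edgeR (adjusted p = 0.0772) and was called by DESeq2 (adjusted p = 0.0427) and by edgeR without anemia 2 (-0.61, adjusted p = 0.00257). All 9 macrophage markers had UMIs in endothelial-like cells and summed to 191 to 249 CPM in control and 170.0 to 400.2 CPM in anemia mice, highest in anemia 2. In hepatocyte-like cells all 9 summed to 166 to 299 CPM in control and 98.8 to 296 CPM in anemia mice, with medians of 239.6 and 146 CPM. In stellate-like cells they summed to 549 to 1555 CPM in control and 620.2 to 1716 CPM in anemia mice. Their part in the result was not tested.

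Il1a was also lower within clusters of endothelial-like cells. In cluster 5 (Clec4g, Dnase1l3, Stab2), whose leading genes are those of sinusoidal endothelium, it was 108, 119 and 148 CPM in control and 14.0, 32.3 and 67.2 CPM in anemia mice. In cluster 7 (Fgf23, Adam23, Flt1) it was 133, 135 and 154 CPM and then 48.3, 61.9 and 98.8 CPM. The groups did not overlap in either, nor in cluster 29, whereas they overlapped in clusters 23, 25, 50 and 56, for example with 16.5, 49.5 and 57.5 CPM and then 14.4, 22.5 and 50.6 CPM in cluster 23. The makeup of the class differed as well: cluster 5 was 45.2, 47.8 and 50.8% in control and 12.7, 20.1 and 23.2% in anemia mice of the endothelial-like cells, and cluster 7 was 17.0, 24.6 and 32.2% and then 41.0, 47.2 and 53.6%. In the stellate-like class most Il1a UMIs lay in cluster 38 (Ank3, Reln), whose cells had 7.24 times the median depth of their mouse. Its level was 76.0, 83.3 and 101 CPM in control and 33.2, 47.8 and 65.4 CPM in anemia mice, without overlap, and its share was 29.4, 41.3 and 45.6% and then 17.8, 24.9 and 38.0% of the stellate-like cells. In clusters 37 and 40 the Il1a level over all cells was 6.53 and 16.5 CPM.

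Il1f9 and Il18 were called by edgeR in 0 of 4 and 0 of 14 tests, each with 1 at an unadjusted p under 0.05. DESeq2 called Il1f9 in the sum of all kept cells (adjusted p = 0.0240) and made no other call for either gene, and voom called neither. In that sum edgeR gave Il1f9 a log2 fold change of 1.44 ± 0.49 (adjusted p = 0.0988; without anemia 2, 0.96 and 0.201). The level was 31.8 CPM in anemia 2 and 25.2 CPM in anemia 3, and the next highest was 9.78 CPM. Il1f9 in neutrophil-like cells was 165, 216 and 259 CPM in control and 187, 243 and 483 CPM in anemia mice, overlapping and highest in anemia 2 (0.34 ± 0.21, edgeR adjusted p = 0.471; without anemia 2, 0.11 and 0.834). Il18 in macrophage-like cells was 164, 187 and 202 CPM in control and 119, 159.5 and 165 CPM in anemia mice. Only 2 anemia mice exceeded the lowest control, and the change of -0.16 ± 0.08 was not called (edgeR adjusted p = 0.278). In monocyte-like cells Il18 was 20.3, 27.5 and 35.8 CPM and then 29.0, 36.4 and 80.8 CPM, overlapping and highest in anemia 2 (0.83 ± 0.27, edgeR adjusted p = 0.187; without anemia 2, 0.53 and 0.327).

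Tnf fell in conventional dendritic-like cells. The level was 57.4, 70.6 and 105 CPM in control and 32.9, 45.4 and 54.8 CPM in anemia mice. All anemia mice lay below all controls, with a log2 fold change of -0.78 ± 0.16 (edgeR adjusted p = 0.0354; without anemia 2, -0.84 and 0.0228). The call was lost with Y-linked expression as a covariate (-0.74, edgeR adjusted p = 0.0890), with coarser clusters (-0.33, edgeR adjusted p = 0.401), in the joint voom model (-0.80, adjusted p = 0.121) and without control 2, control 3, control 4, control 5, anemia 1, anemia 3 or anemia 6. In these 7 fits without 1 mouse the fold change was -0.81 to -0.65 (edgeR adjusted p = 0.0514 to 0.108). All 6 monocyte markers had UMIs in these cells and summed to 188 to 263 CPM in control and 188 to 351 CPM in anemia mice, and all 9 macrophage markers summed to 87.8 to 163 CPM in control and 95.9 to 201 CPM in anemia mice. Their part in the result was not tested. In macrophage-like cells Tnf was 109, 156 and 167 CPM in control and 57.2, 101 and 143 CPM in anemia mice, which overlap. That change of -0.50 ± 0.19 was not called by edgeR (adjusted p = 0.155) and was called by the joint voom model (adjusted p = 0.0213). In neutrophil-like cells Tnf was 37.9, 48.6 and 72.0 CPM and then 35.9, 68.0 and 415 CPM, the highest in anemia 2 (1.28 ± 0.48, edgeR adjusted p = 0.217; without anemia 2, 0.40 and 0.468).

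Il6, which drives the acute-phase response of hepatocytes, had its highest level in the basophil and mast-like class of 583 cells. At least 1 Il6 UMI was found in 80.1% of them, against 0.0549% of B-like cells of similar median depth (1472 and 1387 UMIs), and they held 21.3% of all Il6 UMIs. Their level was 1688, 1853 and 2003 CPM in control and 1070.0, 1968 and 2360.3 CPM in anemia mice. The groups overlapped, and the log2 fold change was -0.01 ± 0.18 (edgeR adjusted p = 0.995). In macrophage-like cells Il6 was 33.2, 36.6 and 57.9 CPM and then 24.5, 29.4 and 42.7 CPM, overlapping (-0.27 ± 0.16, edgeR adjusted p = 0.357).

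Il6 rose in the stellate-like class as a whole. The level was 4.12, 8.01 and 23.6 CPM in control and 22.7, 24.4 and 31.9 CPM in anemia mice, so that only control 3 reached the anemia range, with a log2 fold change of 1.42 ± 0.30 (edgeR adjusted p = 0.00482; without anemia 2, 1.42 and 0.00801). Most of these transcripts were in cluster 40 (Mfap5, Col1a1, Dpt, genes of fibroblasts), where the level was 28.9, 62.8 and 88.5 CPM in control and 54.4, 65.1 and 80.4 CPM in anemia mice. Within that cluster the anemia values lay inside the control range. Cluster 40 made up 10.1, 18.3 and 32.3% in control and 29.6, 48.5 and 63.4% in anemia mice of the stellate-like cells. In cluster 38 (Ank3, Reln), Il6 was 1.37, 2.05 and 5.51 CPM and then 0, 3.25 and 6.90 CPM. Of the 7 basophil and mast markers, 6 had UMIs in stellate-like cells and Fcer1a was at 0. They summed to 6.65 to 22.7 CPM in control and 3.59 to 9.21 CPM in anemia mice, highest in control 3, which also had the highest control level of Il6. Their part in the result was not tested, nor was that of the hepatocyte markers in these cells, given below with Il1r1. In endothelial-like cells Il6 was 0.139, 0.474 and 1.07 CPM and then 0.348, 1.23 and 1.52 CPM, overlapping (1.20 ± 0.44, edgeR adjusted p = 0.0724; without anemia 2, 1.12 and 0.118), and was called by the joint voom model (1.64, adjusted p = 0.0103).

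Il10 was called by edgeR in 0 of 13 tests, the sum of all kept cells included, with 1 at an unadjusted p under 0.05, and DESeq2 and voom called 0. In macrophage-like cells it was 44.1, 56.0 and 109 CPM in control and 41.3, 57.6 and 95.2 CPM in anemia mice, overlapping (0.11 ± 0.26, edgeR adjusted p = 0.838). Its largest fitted change was in B-like cells, at 3.61, 5.26 and 10.0 CPM and then 1.76, 3.32 and 4.68 CPM (-0.83 ± 0.29, edgeR adjusted p = 0.129).

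The signaling receptor Il1r1 rose in endothelial-like and stellate-like cells, classes in which Il1a fell. In endothelial-like cells it was 104, 127 and 142 CPM in control and 225, 310.2 and 345 CPM in anemia mice. The lowest anemia mouse was above the highest control. The log2 fold change was 1.34 ± 0.12 (edgeR adjusted p = 8.61e-06; without anemia 2, 1.30 and 1.55e-05). In stellate-like cells it was 106, 116 and 138 CPM and then 201, 237 and 311 CPM, also without overlap (1.12 ± 0.12, edgeR adjusted p = 3.04e-05; without anemia 2, 1.14 and 6.44e-05). In hepatocyte-like cells it was 29.7, 38.5 and 50.6 CPM and then 23.2, 28.6 and 43.0 CPM, overlapping and not called (edgeR adjusted p = 0.855), though without TMM factors it was called lower (edgeR adjusted p = 0.0260). In cholangiocyte-like cells it was 15.8, 41.5 and 75.0 CPM and then 34.2, 48.2 and 58.9 CPM, also overlapping and not called (edgeR adjusted p = 0.965). The level over all kept cells was 37.7, 48.2 and 51.5 CPM in control and 35.6, 86.1 and 115 CPM in anemia mice (1.00 ± 0.22, edgeR adjusted p = 0.0200), the lowest anemia value being that of anemia 3. Without control 1 that call was lost (edgeR adjusted p = 0.0535).

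**Figure D5:**
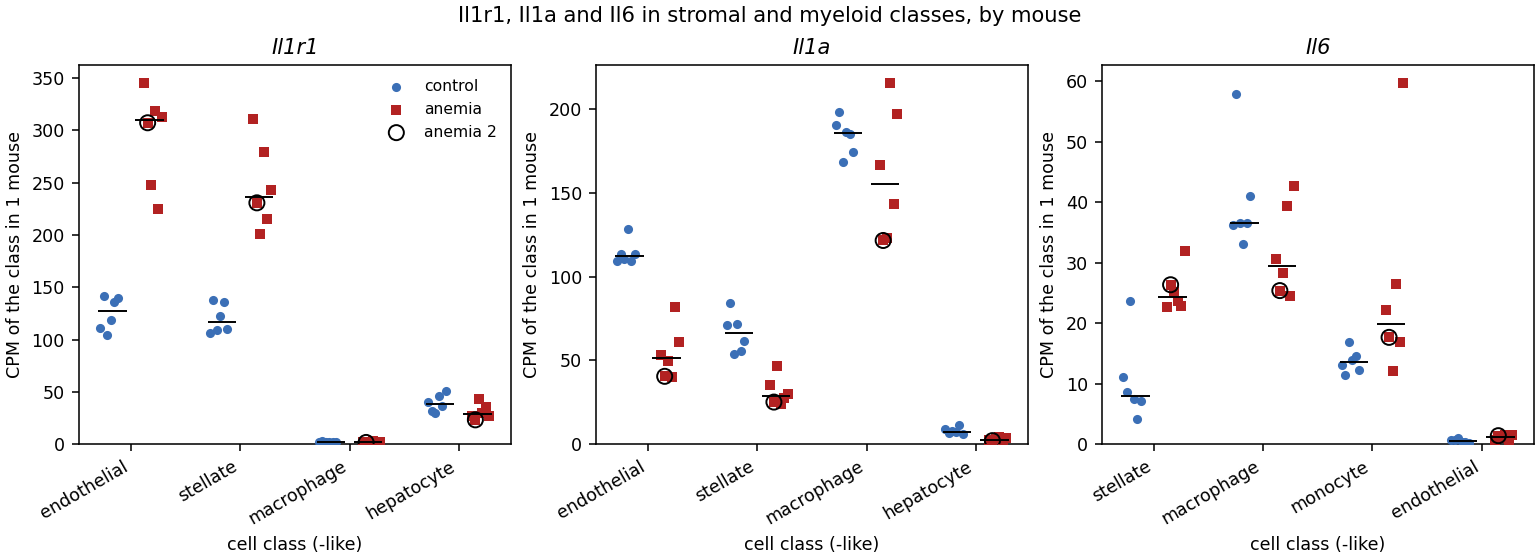
CPM of Il1r1, Il1a and Il6 in stromal and myeloid classes on linear axes, with 1 point per mouse, a bar at the median and a ring around anemia 2. In endothelial-like and stellate-like cells the Il1r1 points of the anemia mice all lie above those of the controls, and the Il1a points all lie below them.

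Il1r1 was higher in several clusters of endothelial-like cells. It was 91.1, 113 and 121 CPM in control and 162, 255 and 309 CPM in anemia mice in cluster 5, 129.7, 145 and 162 CPM and then 267, 354 and 413 CPM in cluster 7 and 62.4, 83.7 and 95.9 CPM and then 139, 224 and 254 CPM in cluster 29, led by cell cycle genes. In these 3 clusters and in cluster 50 the groups did not overlap, whereas in clusters 23, 25 and 56 they did, for example with 119, 194 and 248 CPM and then 178, 251 and 282 CPM in cluster 23 (Ccl21a, Vwf, Rspo3). In the stellate-like class Il1r1 was 108, 128 and 161 CPM in control and 262, 348 and 461 CPM in anemia mice in cluster 38, without overlap, and 21.0, 50.0 and 63.9 CPM and then 51.8, 64.5 and 107 CPM in the Il6-bearing cluster 40, with overlap. Markers of other classes were present. In endothelial-like cells all 8 hepatocyte markers had UMIs and summed to 2224 to 3879 CPM in control and 459.8 to 2405 CPM in anemia mice, lowest in anemia 2, and all 8 stellate markers summed to 104 to 166 CPM in control and 83.2 to 177 CPM in anemia mice. In stellate-like cells all 8 endothelial markers summed to 3952 to 5897 CPM in control and 3159.6 to 5660.4 CPM in anemia mice, and all 8 hepatocyte markers summed to 1815 to 3603 CPM in control and 381 to 2176 CPM in anemia mice, with medians of 2353 and 1628 CPM. Their part in the result was not tested.

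The decoy receptor Il1r2 was higher in the neutrophil-like cells of every anemia mouse, by a narrow margin. The level was 410.5, 445 and 515 CPM in control and 516, 701 and 931 CPM in anemia mice. The lowest anemia value, in anemia 3, and the highest control value, in control 5, were almost equal. The log2 fold change of 0.61 ± 0.14 was not called (edgeR adjusted p = 0.0677), and it was called without anemia 2 (0.66, edgeR adjusted p = 0.0229). DESeq2 called it with all mice (adjusted p = 0.00631), as did the joint voom model, whose spread is pooled over all classes (adjusted p = 7.82e-07). In monocyte-like cells it was 37.4, 50.5 and 63.7 CPM and then 53.9, 68.3 and 98.8 CPM (0.55 ± 0.16, edgeR adjusted p = 0.150). In conventional dendritic-like cells it was 31.9, 40.0 and 47.6 CPM and then 41.5, 51.4 and 77.1 CPM (edgeR adjusted p = 0.283), and both classes had overlapping groups. In the sum of all kept cells Il1r2 rose from 15.7, 19.5 and 24.4 CPM to 26.4, 35.4 and 60.6 CPM without overlap (1.29 ± 0.24, edgeR adjusted p = 0.00878; without anemia 2, 1.13 and 0.0108). There were 35.4, 40.5 and 59.5 Il1r2 UMIs per 100 Il1r1 UMIs in control and 26.2, 41.1 and 170.4 in anemia mice, the highest in anemia 3. The difference in log2 ratio was 0.29 (exact two-sided permutation test, adjusted p = 0.550) and -0.05 without anemia 3.

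In the lymphoid classes, Il1b in NK-like cells was 11.6, 16.3 and 19.6 CPM in control and 9.56, 24.6 and 326 CPM in anemia mice, the highest being anemia 2 (2.39 ± 0.73, edgeR adjusted p = 0.198; without anemia 2, 0.99 and 0.417). Il1rn in the same cells was 0.998, 2.36 and 4.10 CPM and then 0.435, 7.04 and 98.3 CPM, also highest in anemia 2 (3.24 ± 0.93, edgeR adjusted p = 0.176; without anemia 2, 1.54 and 0.369). Il1f9, of which 91.5% of all UMIs lay in neutrophil-like cells, was highest in the NK-like cells of anemia 2 as well (12.1 CPM). The part of transcripts of other cells in these NK-like values was not tested. Tnf in T-like cells was 22.8, 26.9 and 34.5 CPM and then 14.1, 32.2 and 38.7 CPM (edgeR adjusted p = 0.847). In plasmacytoid dendritic-like cells Il1r2 was 22.4, 37.0 and 64.4 CPM and then 26.2, 39.9 and 66.3 CPM (edgeR adjusted p = 0.841). The groups overlapped in all of these.

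Among 50 related genes of IL-1, TNF, IL-6 and IL-10 signaling, 9 of 38 tested rose and 1 fell in stellate-like cells, beside 14.3% of all genes called there in either direction. Irak3, a brake on MyD88 signaling, was 10.5, 11.8 and 15.0 CPM in control and 15.1, 24.5 and 31.6 CPM in anemia mice (1.08, edgeR adjusted p = 0.000553). Socs3, the feedback inhibitor of IL-6 signaling, was 113, 133 and 202 CPM and then 190.3, 237 and 345 CPM (0.93, edgeR adjusted p = 0.00120). Il33, an alarmin of the IL-1 family, was 19.7, 25.7 and 27.4 CPM and then 34.5, 48.9 and 66.5 CPM (1.03, edgeR adjusted p = 0.000557). The median log2 fold change of the 38 genes was 0.07, beside -0.02 for all genes.

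In endothelial-like cells 6 of 39 of these genes rose and 3 fell, beside 17.8% of all genes called in either direction. Socs3 was 60.5, 73.4 and 106 CPM in control and 147, 199.6 and 259 CPM in anemia mice, without overlap (1.52, edgeR adjusted p = 3.62e-05). The receptor chain gene Il6st was 251, 276 and 348 CPM and then 411, 477 and 594 CPM (0.89, edgeR adjusted p = 0.000251). Tnfaip3, an inhibitor of NF-kappaB signaling, was 41.8, 44.7 and 55.6 CPM and then 43.5, 79.1 and 96.3 CPM (0.80, edgeR adjusted p = 0.00338). In macrophage-like cells 2 of 41 rose and 0 fell (all genes, 2.48%): Il6st (0.65, edgeR adjusted p = 0.00618) and Socs3 (0.63, edgeR adjusted p = 0.0306).

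In hepatocyte-like cells 2 of 36 genes were higher and 15 lower, in a class where 55.2% of all genes were called and the median of all genes depends on the scaling. Gsdmd, the pore-forming target of inflammatory caspases, was 8.43, 11.4 and 19.2 CPM and then 12.7, 17.2 and 53.8 CPM (1.25, edgeR adjusted p = 0.00318). Nfkbiz, which modulates NF-kappaB targets, was 84.0, 104 and 119 CPM in control and 25.8, 37.3 and 45.8 CPM in anemia mice (-1.20, edgeR adjusted p = 1.15e-06). Casp4, an inflammatory caspase gene, was 15.5, 16.5 and 22.9 CPM and then 3.41, 5.24 and 10.8 CPM (-1.18, edgeR adjusted p = 0.000128).

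B-like cells, in which 2.15% of all genes were called, had 3 of 38 related genes higher: Ltb (0.57, edgeR adjusted p = 0.0378), Il6st (0.55, 0.0333) and Irak2 (0.49, 0.0199). Without anemia 2, Ltb and Il6st were not called there (edgeR adjusted p = 0.0742 and 0.0630). T-like cells (1.33% of all genes called) had 1 of 42 higher, the IL-18 receptor gene Il18r1 (0.52, edgeR adjusted p = 0.0230). Pre-B-like cells (1.44%) had 2 of 38 lower, Nfkb1 (-0.37, edgeR adjusted p = 0.0236) and Nfkbia (-0.35, 0.0271), and plasmacytoid dendritic-like cells (1.24%) 1 of 36 lower, Tnfaip3 (-0.48, edgeR adjusted p = 0.0469). Over all kept cells (6.92%) 4 of 43 were higher, among them Socs3 (1.03, edgeR adjusted p = 0.0103), the IL-33 receptor gene Il1rl1 (0.89, 0.0357) and the accessory chain gene Il1rap (0.55, 0.0354; without anemia 2, 0.0531).

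In the other 7 classes edgeR called 0 related genes. The counts at an unadjusted p under 0.05 were 1 of 39 in monocyte-like (14.0% of all genes) and 17 of 39 in neutrophil-like cells (15.7%), where DESeq2 called 0 and 1 and the joint voom model 0 and 3. They were 8 of 39 in NK-like (13.5%), 3 of 40 in erythroid-like (11.5%), 5 of 35 in conventional dendritic-like (11.2%), 1 of 29 in cholangiocyte-like (8.85%) and 0 of 18 in basophil and mast-like cells (8.72%). There DESeq2 called 1 in NK-like and 2 in conventional dendritic-like cells and 0 in the other 3, and voom called 0.

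The genes most like each member were found over 74 clusters of at least 100 cells, by Pearson's r of log2(CPM + 1). The clusters share libraries and differ in depth, so r is a description. Il1b was most like Nlrp3 (0.97), Ccl6 (0.96) and Pla2g7 (0.95), of which Nlrp3 encodes an inflammasome sensor. Il1a was most like Msr1 (0.93), Tfec (0.92) and Mertk (0.91), and Il1rn like Sirpb1b (0.92), Sirpb1c (0.91) and Pla2g7 (0.91). Il1r1 was most like Amotl2 (0.93), Hspg2 (0.93) and Msrb3 (0.93), and Il1r2 like Antxr2 (0.88), Mmp8 (0.88) and Il1f9 (0.86), the last being a member itself and Mmp8 a neutrophil collagenase gene. Il1f9 was most like Csta3 (0.97), Csta2 (0.96) and Mrgpra2b (0.95). Il18 was most like Shtn1 (0.91), Guca1a (0.90) and Nr1h3 (0.89), and Tnf like Naip2 (0.91), Cln3 (0.91) and Lcp2 (0.91). Il10 was most like Tnf (0.88), AB124611 (0.88) and Tank (0.86). Il6 had the weakest matches, C3ar1 (0.84), Cxcl2 (0.79) and Hacd4 (0.79). Sirpb1b and Sirpb1c, and likewise Csta2 and Csta3, are close copies of each other, so the division of reads between them is uncertain.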

How the data were processed

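Gene-by-cell UMI counts, made and deposited by the authors from 10x 3′ libraries, were used as raw counts. The submitters' notes name Cell Ranger, Seurat and mm10, and the matrix header gives Cell Ranger 7.0.0. The kit is version 2 in the labels and version 3.1 in the study's methods. The members and gene lists were chosen with earlier results of these data known. Barcodes were kept if they held 500 to 50000 UMIs, of which mitochondrial UMIs made up no more than 50%. Clusters (2000 variable genes, 20 components, 20 neighbors, Leiden resolution 2; scanpy 1.11.5, leidenalg 0.10.2) were named from marker lists; the conditions for a name were added after the clusters were seen, so shares may differ from those of the study. UMIs were summed per mouse and class, and genes averaging 5 or more per mouse were tested with edgeR 4.0.16 (R 4.3.3; alternatives DESeq2 1.42.0 and limma 3.58.1). All members were named, and of 50 related genes the counts and up to 3 per class with the largest called changes, and for each member the 3 genes most alike across clusters. Ratios (pseudocount 0.5 UMIs), shares and differences between classes were compared by exact permutation over mice. The fits were tested on simulated data. Alternatives changed the tool, scaling, count filter, covariates, doublets, mitochondrial limit or resolution, or left out each mouse. Levels resting on under 1000 UMIs were not examined for outlying mice, a limit chosen after the data were seen. P-values of edgeR, DESeq2 and the permutation tests set the difference between groups against the spread between mice. Those of the joint voom model use a spread pooled over the classes, with no term for the mouse.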

Additional observations from a re-analysis of the deposited data

Results flagged for a closer look

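In 18 of 78 groups of 6 mice, 1 mouse lay far from the other 5 by Dixon's criterion, and in 13 of them that mouse was anemia 2. Chance gives this in about 1 of 20 groups if groups are independent and values normally distributed. These groups reuse the same mice across genes and classes, so the 18 are not separate findings. In neutrophil-like cells it was the highest for Il1b (3061 CPM, next 1125), Il1rn (1251, next 266), Tnf (415, next 103) and Il1f9 (483, next 292). In monocyte-like cells it was the highest for Il1rn (316.5 CPM), Tnf (187) and Il1a (58.2), and in NK-like cells for Il1b (326). In macrophage-like cells it was the lowest for Il18 (119 CPM, next 154). Over all kept cells it was the highest for Il1b (654 CPM), Il1rn (183), Tnf (112) and Il1a (57.3).

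The other outlying mice were control 3, lowest for Il1a over all kept cells (54.2 CPM), control 4, highest for Il1a in endothelial-like cells (128), and control 2, highest for Il1rn in monocyte-like (118) and for Il6 in macrophage-like cells (57.9). Anemia 6 was the highest for Il6 over all kept cells (20.3 CPM, next 13.5).

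The effect of anemia on Il1b differed between classes by exact permutation tests of the difference itself, on log2(CPM + 1): by -1.65 between macrophage-like and neutrophil-like, by -0.92 between monocyte-like and neutrophil-like and by -0.73 between macrophage-like and monocyte-like cells.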

How the results depend on the processing

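The number of members called moved by more than 1.5 times as follows. The counts under an alternative or without a mouse have no share of all genes beside them and are descriptions. In neutrophil-like cells (0 called) it was 2 with DESeq2, 2 in the joint voom model, 2 without a filter, 1 without TMM factors and 1 without doublets. In hepatocyte-like cells (3 called) it was 0 at a mean of 50 UMIs, where fewer members were tested, 1 without doublets and 1 with voom. Over all kept cells (2 called) it was 5 with DESeq2 and 4 without TMM factors. In conventional dendritic-like cells (1 called) it was 0 with the Y-linked covariate, at resolution 1 and with voom. It was 4 in endothelial-like (2 called) and 1 in monocyte-like cells (0 called) at resolution 1, and 1 in macrophage-like cells (0 called) with voom. Where no reason is given, the cause was not tested.

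Leaving out each mouse gave 1 to 3 calls over all kept cells, 0 to 1 in conventional dendritic-like, 2 to 3 in endothelial-like, 2 to 3 in hepatocyte-like, 0 to 2 in neutrophil-like and 3 to 4 in stellate-like cells. The log2 ratio difference was 0.58 to 0.77 for Il1rn to Il1b and -0.050 to 0.49 for Il1r2 to Il1r1, negative only without anemia 3. Share differences were -33.6 to -25.3, 11.1 to 20.2 and 13.5 to 17.7 points for Il1b in macrophage-like, monocyte-like and neutrophil-like cells, -21.6 to -13.6, 6.93 to 15.4 and 4.93 to 9.02 for Il1rn, and -15.3 to -9.05, 4.70 to 13.3 and 0.451 to 0.924 for Il18.

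The replicate numbers were not taken to pair mice, since only 3 to 4 of 6 same-numbered pairs correlated over 0.1 in all kept cells and in each of 5 classes checked. With the replicate block, 1 member, Il1r2, was called in neutrophil-like cells (adjusted p = 0.0455) and Il1rn was called in stellate-like cells (1.85, adjusted p = 0.0340), and no call of a member was lost. The Il1rn to Il1b difference of 0.69 and the macrophage-like minus monocyte-like difference of -0.73 had an exact sign-flip adjusted p of 0.0625, and the Il1rn share in monocyte-like cells (12.7 points) one of 0.0402. All 6 pairs had a positive Il1rn to Il1b difference, which gives the smallest p that 6 pairs allow (0.0313 before adjustment), so that miss says nothing about stability.

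These uncalled log2 fold changes turned sign. Over all kept cells Il18 was -0.27 without TMM factors, -0.015 at a mean of 50 UMIs, -0.082 with the block, -0.0073 at 10% mitochondrial UMIs and -0.083 without doublets, and Il10 was -0.049 and Il6 -0.047 without TMM factors. Tnf was -0.048 over all kept cells and -0.030 in endothelial-like cells with the block, and -0.54 in the latter with voom. Il6 in basophil and mast-like cells was 0.038 at a mean of 50 UMIs, 0.074 without doublets and 0.32 at resolution 1. Il1b in conventional dendritic-like cells was -0.016 without doublets, and Il1r1 in hepatocyte-like cells 0.15 at resolution 1.

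Leaving out each mouse also turned these uncalled values. Over all kept cells Il18 was -0.21 to 0.10 (turned without control 3, control 4, anemia 2 or anemia 3), Il10 -0.078 to 0.43 (anemia 2) and Tnf -0.36 to 0.51 (anemia 2). Tnf was -0.25 to 0.47 in endothelial-like (anemia 2 or anemia 3) and -0.21 to 0.38 in monocyte-like cells (anemia 2), Il10 -0.082 to 0.36 in macrophage-like (anemia 3), Il1r1 -0.17 to 0.0045 in hepatocyte-like (control 4) and Il6 -0.10 to 0.11 in basophil and mast-like cells (control 3, anemia 2, anemia 3 or anemia 4).

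Leaving out doublets was not run for stellate-like and cholangiocyte-like cells, which then had under 10 cells in a mouse. With doublets every mouse had at least 71 stellate-like cells. The calls of Il1a, Il1r1 and Il6 in stellate-like cells thus have no check against doublets. The joint voom model was not run for the sum of all kept cells, which is no class of its own.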

Other observations

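The members named below were singled out after their values were seen, and no test was made. An unnamed cluster of 255 cells, led by Prg4, Serpinb2 and Alox15, held 8.84% of all Il6 UMIs at 489 CPM. Anemia 6 contributed 90 of these cells, which carried 35.0% of its Il6 UMIs, against 1.63% to 14.9% in the other 11 mice.

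Monocyte-like cluster 19, led by Ly6i, Clec4e and Saa3, had 99.1% of its 3318 cells from anemia mice and 82.2% from anemia 2. Its Il1b level was 1626 CPM over all cells. Only 1 control mouse had at least 10 such cells, with 1048 CPM, beside 759.5 to 1719.8 CPM in the 5 anemia mice that did.

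In the erythroid-like class 539 of 837 Il1b UMIs lay in 150 cells of 1 cluster, at 747 CPM.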
